A study of Homo sapiens with 4 samples.

Results

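Cadherins and protocadherins are calcium-dependent adhesion proteins of the cell surface, and their transcripts were followed in the human neuroblastoma line SK-N-SH after overexpression of the long non-coding RNA AP1AR-DT. Members were all those whose gene symbol fitted a pattern, that is every gene of the count table named CDH or PCDH followed by a number or by a letter of a protocadherin cluster. Of 75 symbols that fitted the pattern, 2 pseudogene names were dropped, which left 73 of the 24014 genes in the table. They comprised 15 cadherins, 9 non-clustered protocadherins and 49 clustered protocadherins, the last made up of 12 alpha, 16 beta and 21 gamma genes. PCDHB17, PCDHB18 and PCDHA14 are described as pseudogenes in the table but met the rule and were kept.

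The study transduced SK-N-SH cells with a lentivirus that carries AP1AR-DT (AP1AR-DT_OE, 2 libraries) or with the empty lentivirus (control, 2 libraries). The titles and genotype labels of the controls call them wild type, and their treatment label names the empty vector, so by the labels both groups received a lentivirus. RNA-seq of these cells was used to ask which genes change when the RNA is raised. The labels do not say whether the 2 libraries of a group came from separate transductions or separate cultures, so p-values measure only the spread between these libraries. For AP1AR-DT_OE replicate 2 the title gives the clone-based name of the RNA as AC109347.1 and other labels give it as AC109347.2, and the title was followed.

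Libraries held between 21988065 and 26184599 counts, and AP1AR-DT (ENSG00000260526) had 3 and 18 counts in the controls against 680 and 1065 in AP1AR-DT_OE (Log2FC = 6.63, SE = 0.64, DESeq2 adjusted p = 3.64e-21). No library was a copy of another, since the chi-square per degree of freedom over genes was 155 between the controls and 69.0 between the AP1AR-DT_OE libraries. It was 27.7 between the libraries numbered 1 and 34.6 between those numbered 2, so libraries that shared a replicate number were closer to each other than to the other library of their own group. A pair of reads was worth about 4 counts in this table, and 12 counts in a library (3 pairs of reads) was taken as the limit that an observation of 0 allows. Of adrenergic markers of the line, HAND2 was the highest, with 15659 and 12211 normalized counts in control against 15045 and 13117 in AP1AR-DT_OE, followed by PHOX2A with 4563 and 3792 against 4318 and 4684. Of 17 mesenchymal markers 16 were measured, summing to 227780 and 163840 normalized counts in control and 226930 and 183350 in AP1AR-DT_OE, with VIM and COL1A1 the highest and MEOX1 under the limit of 12. Among them PRRX1 lay lower in both AP1AR-DT_OE libraries (1241 and 2246 normalized counts against 2770 and 11358, unadjusted p = 0.001, adjusted p = 0.43). Whether shifts in the make-up of the cultures took part in any result was not tested, and fewer cells of a type and less RNA per cell cannot be told apart in bulk RNA.

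Classical cadherins join cells through their extracellular domains and are tied to actin inside the cell by catenins. Type I cadherins such as CDH2 (N-cadherin) form strong adhesive contacts in neural and mesenchymal cells, and type II cadherins such as CDH11 share the catenin-binding tail. Non-clustered protocadherins of the delta families lack that tail, are expressed in subsets of neurons and act in axon growth and synapse formation. Clustered protocadherins are encoded in tandem on chromosome 5 and give single neurons a surface identity used in self-recognition. Each alpha and gamma gene has its own promoter and large variable exon, which is spliced to constant exons common to the cluster, whereas beta genes are complete in 1 exon. A promoter is chosen with the help of CTCF and cohesin, which act through a conserved sequence element found before most variable exons. The C-type genes at the end of the alpha and gamma clusters (PCDHAC1, PCDHAC2, PCDHGC3, PCDHGC4 and PCDHGC5) are expressed more uniformly in neurons than the others, which are chosen in combinations that vary from cell to cell.

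Promoter sequence is shown for the clustered genes because each of these genes is read from its own promoter. RefSeq promoter windows (GRCh38.p14, 250 bases before to 50 bases after the start) were given for 10 alpha, 12 beta and 19 gamma members. In each cluster the commonest word of 9 bases was taken, tallied on the given strand over all RefSeq windows of that cluster, members or not. It was GATGTCGCT for alpha, GGTGGCGCT for beta and GCGCCGCTG for gamma. Counted on either strand, the words occurred in 7 of 10 alpha, 12 of 12 beta and 9 of 19 gamma members. Among the 27305 genes with a window the shares were 0.128%, 0.619% and 1.59%. Each word was chosen as the commonest in its own cluster. An excess over all genes was thus fixed by that choice and tests nothing. All 3 words hold the letters CGCT, which are frequent on their own and were found in 71.9% of all genes' windows. The following stretches of 60 bases, all on the plus strand, have the best match to the cluster's word in capitals. Given first are the 3 gamma genes with the highest counts in these cells (PCDHGC3, PCDHGB7 and PCDHGA7), then the 3 with the lowest among those with a window (PCDHGA8, PCDHGA11 and PCDHGA1), then beta and alpha genes that are described with their counts.
PCDHGC3 at chr5:141475872-141475931: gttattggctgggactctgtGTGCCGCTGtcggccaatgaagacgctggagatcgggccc
PCDHGB7 at chr5:141417575-141417634: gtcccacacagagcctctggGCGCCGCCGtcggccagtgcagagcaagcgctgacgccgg
PCDHGA7 at chr5:141382641-141382700: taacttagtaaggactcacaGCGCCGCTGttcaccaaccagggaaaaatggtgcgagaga
PCDHGA8 at chr5:141392560-141392619: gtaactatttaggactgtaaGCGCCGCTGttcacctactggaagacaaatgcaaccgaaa
PCDHGA11 at chr5:141420964-141421023: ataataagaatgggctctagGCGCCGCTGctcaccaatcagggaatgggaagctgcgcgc
PCDHGA1 at chr5:141330395-141330454: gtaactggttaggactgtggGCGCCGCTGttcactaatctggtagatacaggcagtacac
PCDHB14 at chr5:141223254-141223313: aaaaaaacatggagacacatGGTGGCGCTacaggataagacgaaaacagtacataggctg
PCDHB15 at chr5:141245305-141245364: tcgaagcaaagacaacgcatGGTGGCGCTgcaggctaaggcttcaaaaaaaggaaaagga
PCDHAC2 at chr5:140966329-140966388: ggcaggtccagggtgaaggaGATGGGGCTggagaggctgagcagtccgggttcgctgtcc
PCDHA4 at chr5:140806970-140807029: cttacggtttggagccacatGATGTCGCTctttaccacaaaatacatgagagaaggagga
Of the gamma genes shown, PCDHGA7, PCDHGA8, PCDHGA11 and PCDHGA1 matched the word at 9 of 9 bases and PCDHGC3 and PCDHGB7 at 8, so a full match occurred among both the highest and the lowest. PCDHAC2 matched its cluster's word at 7 bases, and how often a window holds a match that partial was not examined.

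SK-N-SH cells expressed a small part of the family at a high level. Of the 73 members, 42 were above 12 counts in all 4 libraries, 18 were above it in some, and 13 were at or under it in every library. The last were CDH3, CDH4, CDH6, CDH9, CDH17, CDH22, PCDH8, PCDH19, PCDHA1, PCDHA3, PCDHA5, PCDHA7 and PCDHA14. Their counts were no higher than an observation of 0 allows, although some reads were seen (for CDH9, 0 and 6 counts in control against 8 and 10 in AP1AR-DT_OE). Genes whose normalized counts averaged 50 or more over the libraries are called expressed here, and these were 5 cadherins, 5 non-clustered protocadherins and 23 clustered protocadherins. PCDHGC3, PCDH10, PCDHGB7, CDH2 and PCDHGA7 together held between 76.9% and 79.6% of all member counts in a library.

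Levels of different genes were compared as counts per kilobase of the longest transcript per 1000000 counts. On this scale PCDHGC3 was highest, with levels of 149 and 87.4 in control against 127 and 100.1 in AP1AR-DT_OE. PCDH10 followed at 67.3 and 97.3 in control against 64.5 and 87.0 in AP1AR-DT_OE, and CDH2 at 50.8, 74.5, 58.6 and 65.0 in the same order. The ranges of PCDHGC3 and PCDH10 overlapped, as did those of PCDH10 and CDH2, and those of CDH2 and PCDHGB7 (38.6 to 56.1), so these neighbours cannot be put in order beyond the spread of the libraries. Within a library, PCDH10 was above CDH2 in 4 of 4, and PCDHGC3 above PCDH10 and CDH2 above PCDHGB7 in 3 of 4. PCDHGA7 (22.4 to 29.3) and CDH24 (18.83 to 26.01) overlapped each other and lay below the first 4 in every library. The next levels were those of CDH11 (8.38 to 12.6), CDH13 (5.86 to 6.71), PCDH18 (2.999 to 8.65), PCDHB6 (4.93 to 5.48), PCDHGC5 (4.14 to 6.44) and PCDHGA10 (3.47 to 6.18).

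None of the 73 members was called at an adjusted p under 0.05 by the DESeq2 Wald test across the table (adjusted p = 0.99997 for each), where 33 of 24014 genes were called (0.137%). None had an unadjusted p under 0.05 either, against 196 of all genes (0.816%). The edgeR quasi-likelihood test called 0 of the 55 members it tested and 0 genes of the table, and gave an unadjusted p under 0.05 to 0 members and 112 genes. The fitted Log2FC of the 33 expressed members ran from -0.99 to 0.86, with 8 above 0 and 25 below it and a median of -0.09. Over the 13298 expressed genes of the table the median was -0.02, with 5996 above 0 and 7302 below. The median SE of the 33 members was 0.54 on the log2 scale, so a 95% interval reached about 1 log2 unit to either side. A change of that size in a single gene could have gone undetected. Larger changes could too, since a call rests on a p-value adjusted over the table and asks for more than an interval without 0. The groups did not overlap for 5 of the 33 (15.2%), against 9.45% of all expressed genes. Both AP1AR-DT_OE libraries were below both controls for PCDH7, PCDH17, PCDHB12 and PCDHAC2 (4.35% of expressed genes) and above both for PCDHB15 (5.11% of expressed genes).

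**Figure D1:**
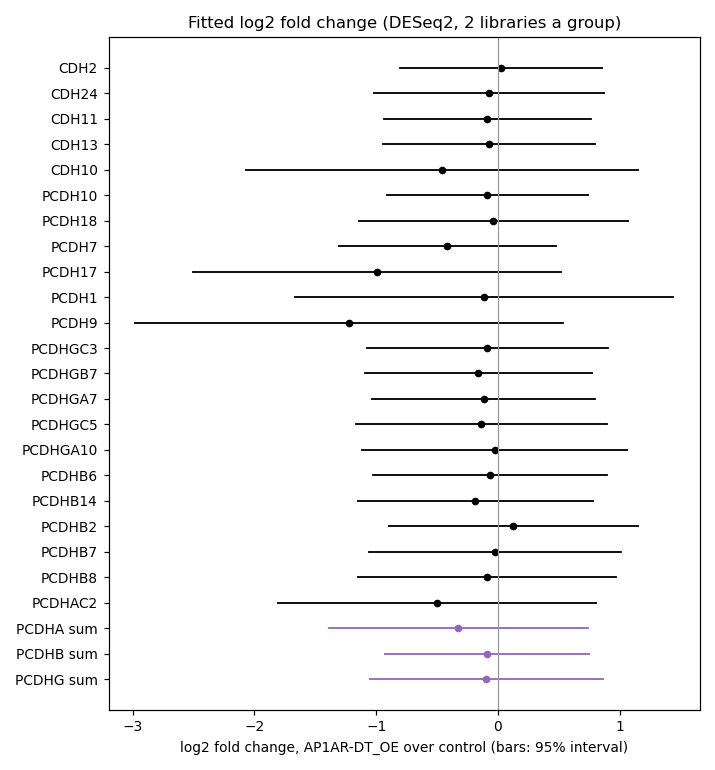
Fitted Log2FC of AP1AR-DT_OE over control for 22 members (those with the highest counts of each class, and PCDH9) and for the summed counts of each protocadherin cluster (DESeq2, n = 2 libraries per group), with points for the estimates and bars for 95% intervals. Every interval includes 0, and the widest belong to low genes such as PCDH9 (-2.98 to 0.54) and CDH10 (-2.07 to 1.15).

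Among the 4 type I cadherins that were members, CDH2 was the one expressed. CDH1 was not among the members. CDH2 (ENSG00000170558, chr18:27932879-28177946, GRCh38) had 5370 and 6043 normalized counts in control against 5908 and 5699 in AP1AR-DT_OE, and the AP1AR-DT_OE values lay between the controls. Its Log2FC was 0.02 (95% interval -0.80 to 0.85), and the sign changed when control replicate 1 or AP1AR-DT_OE replicate 1 was left out. CDH15 (M-cadherin, a muscle cadherin) reached at most 29 counts in a library, and CDH3 and CDH4 were at or under the limit.

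Of the type II cadherins, CDH24, CDH11 and CDH10 were expressed, and in none did the groups separate. CDH24 (chr14:23047062-23057538) had 2434 and 1351 normalized counts in control against 2033 and 1562 in AP1AR-DT_OE (Log2FC = -0.07, interval -1.02 to 0.87). The controls were farther apart than the group means, with the library numbered 1 higher in both groups. CDH11 (OB-cadherin, a cadherin of mesenchymal cells, chr16:64943753-65126112) had 1517 and 1753 in the controls against 1504 and 1578, a Log2FC of -0.09 (interval -0.94 to 0.77). CDH10, a brain cadherin, was low, with 51.3 and 108.8 in control against 27.4 and 89.3 in AP1AR-DT_OE, and the libraries numbered 2 were the higher in both groups. CDH18 and CDH20 reached at most 23 counts.

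CDH13 (T-cadherin, held to the membrane by a lipid anchor and without a catenin-binding tail, chr16:82626965-83800640) had 1261 and 1067 normalized counts in control against 1158 and 1056 in AP1AR-DT_OE. Its Log2FC was -0.07 (interval -0.94 to 0.80), and the groups overlapped. Its gene span overlaps that of HSBP1 on the same strand in GENCODE, and whether their exons overlap was not examined. CDH23, a cadherin of inner ear hair bundles, reached at most 14 counts.

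**Figure D2:**
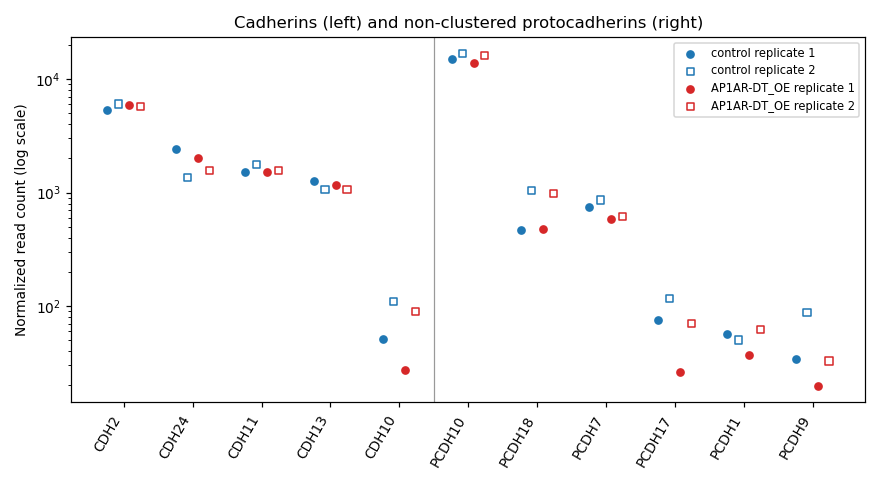
Normalized read counts (log axis) of the cadherins and non-clustered protocadherins that were expressed, and of PCDH9, with 1 point per library (blue control, red AP1AR-DT_OE, circles replicate 1, squares replicate 2). PCDH10 sits between 13789 and 16727 in all libraries, and for PCDH18 and CDH10 the squares of both groups lie above the circles.

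Of the non-clustered protocadherins, the delta-2 gene PCDH10 dominated. PCDH10 (chr4:133149294-133208606), which recruits actin regulators through its tail, had 15084 and 16727 normalized counts in control against 13789 and 16152 in AP1AR-DT_OE. Its Log2FC was -0.09 (interval -0.91 to 0.74) and the groups overlapped. PCDH18 (chr4:137518918-137532494) had 468.1 and 1035 in control against 473.9 and 989.6 in AP1AR-DT_OE. The libraries numbered 2 were more than 1 log2 unit above those numbered 1 in each group (1.14 in control, 1.06 in AP1AR-DT_OE), while the difference of the groups within a number was 0.02 for number 1 and -0.07 for number 2. PCDH17, a synaptic delta-2 protocadherin (chr13:57631744-57729311), had 75.2 and 117.3 in control against 26.3 and 70.5 in AP1AR-DT_OE. Both AP1AR-DT_OE libraries were lower, with a Log2FC of -0.99 (SE = 0.77, interval -2.50 to 0.52, unadjusted p = 0.1985 in DESeq2). PCDH19 was under the limit of 12 counts throughout, with 7 and 6 in control and 0 in each AP1AR-DT_OE library.

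The delta-1 gene PCDH7 (chr4:30720415-31146805) had 750.6 and 859.3 normalized counts in control against 590.1 and 615.4 in AP1AR-DT_OE. Both AP1AR-DT_OE libraries were lower, by -0.35 within number 1 and -0.48 within number 2 on the log2 scale, and the fitted Log2FC was -0.42 (SE = 0.45, interval -1.31 to 0.47, unadjusted p = 0.36 in DESeq2). PCDH1, a delta-1 protocadherin also found in airway epithelium, had 56.9 and 50.1 against 37.3 and 61.5. PCDH9, a delta-1 protocadherin of the brain (chr13:66302834-67230445), was low. Before normalization it had 30 and 114 counts in control against 18 and 33, and its mean normalized count of 43.7 was under the minimum of 50. Normalized, control had 34.2 and 87.9 and AP1AR-DT_OE had 19.7 and 32.8, so the lower control was close to the higher AP1AR-DT_OE library. The Log2FC was -1.22 (SE = 0.90, interval -2.98 to 0.54, unadjusted p = 0.173 in DESeq2). PCDH12, an endothelial protocadherin whose gene span overlaps that of RNF14 on the other strand, reached at most 36 counts.

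The clustered protocadherins lay on chromosome 5 in the order alpha (chr5:140786136-141012347), beta (chr5:141094606-141249365) and gamma (chr5:141330514-141512979), from the gene positions in the table (GRCh38). Counts of single alpha and gamma genes are uncertain, since the constant exons are common to the cluster. In GENCODE, 2177 bases of the longest transcript of most gamma genes and 2869 bases of that of most alpha genes lay in exons of other members. The longest transcripts of PCDHGA6, PCDHA4 and PCDHA14 shared none. Beta genes shared no exon, but up to 16.2% of the 150-base stretches of a beta transcript (PCDHB8) occurred letter for letter in another member. The counts of each cluster were therefore also summed and tested as 1 row. Sums and shares cover the members only. PCDHA6, PCDHA9, PCDHA10, PCDHA13, PCDHB1, PCDHB16 and PCDHGB5 were not among the members.

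**Figure D3:**
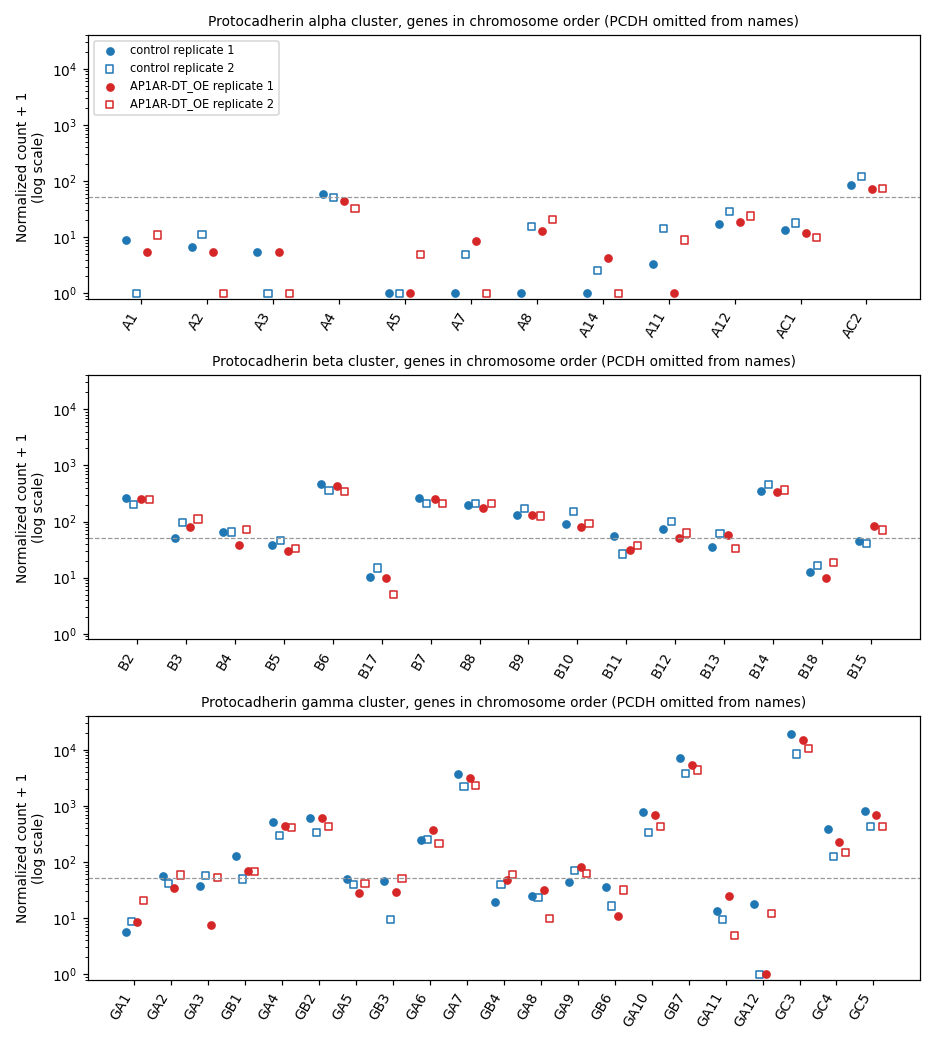
Normalized read counts plus 1 (log axis) of the 49 clustered protocadherins in chromosome order, 1 point per library (blue control, red AP1AR-DT_OE, circles replicate 1, squares replicate 2), with a dashed line at a normalized count of 50. In the gamma panel PCDHGA7, PCDHGB7 and PCDHGC3 stand above all other members in every library, while 1 of 12 alpha genes has a mean over the line.

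Summed counts of the gamma cluster were far above those of the others. The 21 gamma genes summed to 33272 and 16450 normalized counts in control against 26925 and 19567 in AP1AR-DT_OE, so both AP1AR-DT_OE libraries lay between the controls (Log2FC = -0.10, interval -1.05 to 0.86, adjusted p = 0.99999 in DESeq2). Within replicate numbers the log2 ratio of AP1AR-DT_OE to control was -0.31 for number 1 and 0.25 for number 2. The 16 beta genes summed to 2107 and 2203 in control against 2031 and 2023 in AP1AR-DT_OE, slightly lower in both (Log2FC = -0.09, interval -0.93 to 0.75). The 12 alpha genes summed to 190.2 and 256.9 against 178.8 and 178.7, also lower in both, with a Log2FC of -0.32 (interval -1.39 to 0.74, unadjusted p = 0.55 in DESeq2). Without control replicate 2 this Log2FC was -0.08, and without control replicate 1 it was -0.52.

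Within the gamma cluster 3 genes held most of the counts in every library. PCDHGC3 held 56.3% and 51.1% of the gamma counts in control against 56.4% and 53.1% in AP1AR-DT_OE. PCDHGB7 held between 19.7% and 22.6% and PCDHGA7 between 11.04% and 13.37%, and the 3 genes together had a mean share of 87.6%. Most gamma transcripts have nearly the same length (median 4776 bases), so these shares were little affected by length. The 3 C-type genes together held 59.9% and 54.4% of gamma counts in control against 59.8% and 56.1% in AP1AR-DT_OE, the groups overlapping. At the other end, PCDHGB6, PCDHGA8, PCDHGA11, PCDHGA1 and PCDHGA12 each had a mean share under 0.1%. Of these, PCDHGA8, PCDHGA11 and PCDHGA1 carry a full match to the word in the promoter stretches shown, and PCDHGB6 carries one in a stretch not shown.

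**Figure D4:**
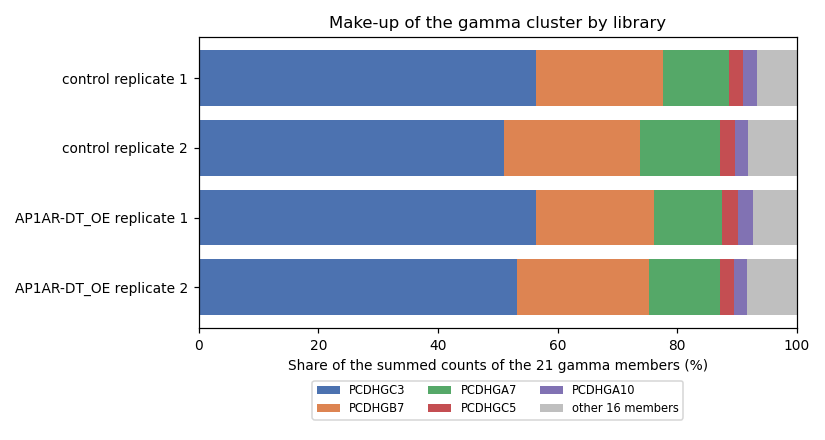
Share of the summed gamma-cluster counts (%) held by the 5 members with the highest mean share and by the other 16, with 1 bar per library. PCDHGC3, PCDHGB7 and PCDHGA7 fill most of each bar and keep the same order in all 4 libraries.

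PCDHGC3 (chr5:141475947-141512977), a C-type gene, had 18738 and 8402 normalized counts in control against 15173 and 10394 in AP1AR-DT_OE. Both AP1AR-DT_OE libraries lay between the controls, and the Log2FC was -0.09 (interval -1.08 to 0.91). PCDHGB7 (chr5:141417645-141512975) had 7056 and 3723 against 5306 and 4341 (Log2FC = -0.16, interval -1.09 to 0.77), and PCDHGA7 (chr5:141382739-141512975) had 3674 and 2199 against 3087 and 2326 (Log2FC = -0.12, interval -1.04 to 0.80). In these genes, too, the spread between the controls was larger than the difference of the groups. PCDHGC5 had 814.3 and 431.2 against 699.8 and 433.7, and PCDHGA10 had 781.3 and 336.3 against 672.4 and 423.8. The libraries numbered 2 were lower than those numbered 1 in both groups for all 5 genes.

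Beta genes were expressed more evenly. PCDHB6 held between 16.3% and 21.7% of beta counts and PCDHB14 between 16.3% and 20.5%, and the 5 highest genes (PCDHB6, PCDHB14, PCDHB2, PCDHB7 and PCDHB8) together 68.8% on average. PCDHB6 (chr5:141150057-141153287) had 457.9 and 357.9 normalized counts in control against 432.2 and 347.4 in AP1AR-DT_OE, and PCDHB14 (chr5:141223343-141227759) had 342.8 and 452.0 against 336.8 and 362.3. The groups overlapped for both, with Log2FC of -0.06 and -0.19. PCDHB2 had 256.3 and 201.3 against 250.1 and 249.1, PCDHB7 had 256.3 and 210.6 against 251.2 and 207.4, and PCDHB8 had 195.9 and 206.0 against 171.1 and 206.5. The gene spans of PCDHB6 and PCDHB7 overlap that of AC005754.7 on the other strand in GENCODE, and whether counting used strand is not stated. Outside the naming rule and chosen after their values were seen are the expressed beta genes whose groups did not overlap. PCDHB15, whose promoter stretch carries the full beta word, had 43.3 and 40.1 in control against 82.3 and 69.5 in AP1AR-DT_OE (Log2FC = 0.86, SE = 0.74, unadjusted p = 0.25 in DESeq2). PCDHB12 had 72.9 and 98.0 against 49.4 and 61.5 (Log2FC = -0.62, SE = 0.71). The counts behind these values were low (38, 52, 75 and 70 for PCDHB15 before normalization, at about 4 per pair of reads).

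Alpha genes were close to the limit of detection. PCDHAC2 (chr5:140966470-141012347), the C-type gene next to the constant exons, was the highest and had 84.3 and 118.8 normalized counts in control against 70.2 and 73.5 in AP1AR-DT_OE. Both AP1AR-DT_OE libraries were lower (Log2FC = -0.50, SE = 0.67, interval -1.81 to 0.80). It held between 39.3% and 46.2% of alpha counts. With PCDHAC1 added, the C-type share of alpha counts was 50.9% and 52.9% in control and 45.4% and 46.1% in AP1AR-DT_OE, lower in both. The 95% Wilson intervals of the 4 shares, taken over pairs of reads, overlapped and reached from 29.9% to 64.5%, so the difference was within counting error. PCDHA4 held between 17.8% and 29.9%, but its longest transcript has 10557 bases, none of them in exons of other members. Per kilobase of that transcript its mean level was 0.19, against 0.17 for PCDHA12 and 0.67 for PCDHAC2. The longest transcripts of PCDHA12 and PCDHAC2 are shorter (5438 and 5725 bases) and include shared exons. These levels thus rest on unlike transcripts, and the likeness of PCDHA4 and PCDHA12 depends on that choice of length. The other alpha genes had at most 22 counts in a library, PCDHA12 (14 to 36) excepted.

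The members' spread within a group went with GC content. Across the 33 expressed members, Spearman's rho between the GC content of the longest transcript and the log2 ratio of the library numbered 2 to that numbered 1 (normalized count plus 1) was -0.67 in the controls and -0.56 in AP1AR-DT_OE, as a description across genes that share these libraries. Over 13284 genes it was -0.77 and -0.65. Of the 11 expressed gamma genes, whose GC content lay between 46.1% and 56.5%, 9 were lower in control replicate 2 than in control replicate 1 and 11 were lower in AP1AR-DT_OE replicate 2, with median log2 ratios of -0.92 and -0.49. The 11 expressed beta genes (45.7% to 53.9%) divided into 5 lower and 6 higher in each group, with medians of 0.07 and 0.11. Of the 5 expressed non-clustered protocadherins, 4 were higher in control replicate 2 and 5 in AP1AR-DT_OE replicate 2. As the ratio between the libraries numbered 2 and 1 was not the same in both groups, the ratio of AP1AR-DT_OE to control also went with GC content. Among the 33 members rho was -0.28 within number 1 and 0.57 within number 2, and over 13284 genes it was -0.34 and 0.62. The labels do not say whether a replicate number marks a batch.

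**Figure D5:**
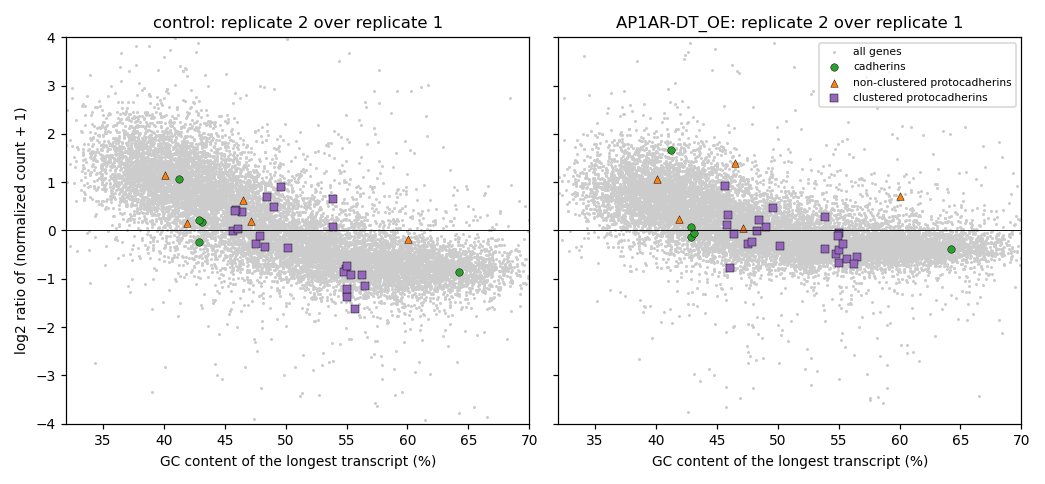
Log2 ratio of normalized counts plus 1 in replicate 2 over replicate 1 against the GC content (%) of the longest transcript, in control (left) and AP1AR-DT_OE (right), for 33 members (coloured by class) and all expressed genes (grey, points beyond the axes not drawn). Ratios fall as GC content rises in both panels, more steeply in control.

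Partners and regulators were read from lists of known roles, and none of their genes was called (0.137% of all genes were). Of 10 measured catenins and catenin-linked proteins, VCL (vinculin) and CTNNA1 (alpha-catenin) were highest. CTNNA1 had 3911 and 4066 normalized counts in control against 4449 and 3956 in AP1AR-DT_OE (Log2FC = 0.08), and VCL had 7367 and 5141 against 6725 and 5396 (Log2FC = -0.05). The median Log2FC of the 9 expressed was -0.01. Of 14 other members of the cadherin superfamily, 3 of the 10 expressed were above 0 and 7 below, with a median of -0.16. They were led by CLSTN1 (a synaptic calsyntenin, Log2FC = 0.02) and CELSR3 (a receptor of planar polarity, Log2FC = -0.13). Among 7 transcription factors that repress cadherin genes in epithelia, TWIST1 had 7028 and 8806 against 7241 and 9091 (Log2FC = 0.04) and SNAI1 had 1243 and 1024 against 1211 and 1095 (Log2FC = 0.03), with the groups overlapping for both.

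The 14 factors of protocadherin promoter choice were all measured, with 2 above 0 and 12 below and a median of -0.10. WIZ, which acts with CTCF at loops, had 6682 and 2483 normalized counts in control against 4871 and 3374 in AP1AR-DT_OE, and SMC1A, a cohesin subunit, had 3114 and 2108 against 2840 and 2039. In both the controls were farther apart than the group means. Of 11 measured partners of protocadherin signalling, 3 were above 0 and 8 below (median -0.08), the highest being WASF2 (Log2FC = -0.07) and BRK1 (Log2FC = 0.19), subunits of the actin-regulating WAVE complex. Of 8 proteases that cut cadherins and protocadherins, 2 were above 0 and 6 below (median -0.02), and the gamma-secretase subunits APH1A (Log2FC = 0.02) and NCSTN (Log2FC = -0.01) were highest. No gene of these 6 lists had an unadjusted p under 0.05, against 0.816% of all genes.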

How the data were processed

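RNA-seq counts of 4 SK-N-SH libraries (2 control, 2 AP1AR-DT_OE, grouped by title) were used as deposited. Per the study's methods, the authors aligned reads with HISAT2 to hg19 and derived whole-number gene counts from StringTie output, not normalized. The submitters' processing notes instead list TopHat2 2.0.4, SAMtools, HTSeq, Cuffdiff and edgeR 2.6.12 with hg19, and the conflict was not resolved. Gene positions in the deposited table are GRCh38. Strand use in counting is not given in the sources used here. Low values piled up at multiples of 4 (3287 entries of 4 against 2136 of 3 and 1509 of 5), so about 4 counts stand for 1 pair of reads, and the limit of 12 counts and Wilson intervals of shares cover counting error only. The table's 11 columns of the authors' own comparisons (fold changes, p-values and the like) were not used.

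Counts were tested with DESeq2 1.42.0 (R 4.3.3; median-of-ratios size factors, two-sided Wald test without covariates, default independent filtering, Benjamini-Hochberg adjustment over the table, 0.05). Log2FC is AP1AR-DT_OE over control, and intervals are 95% normal intervals of the fit. Transcript length, GC content and exon sharing between members were those of each gene's longest transcript in the GRCh37 version of GENCODE v44. It had all 73 members by gene ID. Strand and overlap with genes other than members were read from gene spans. Promoters were RefSeq windows, matched by symbol for 56 members. Fits were also run on simulated counts with known changes. The simulation lacked the patterns of GC content and replicate number seen here, so it does not test the fits under them. Alternatives were edgeR 4.0.16, TMM factors, expression filters, no independent filtering, a replicate block, GC correction, counts divided by 4, leaving out each library, summed clusters, and other minimum means. Same-numbered libraries deviated together (r = 0.49 over 13298 genes), but with 2 pairs and no label on the numbers they were not treated as paired. The symbol rule that defines the members uses no measured value, but it and the gene lists were chosen with earlier results of these data known. Named were members with p under 0.05 (none), cadherins and non-clustered protocadherins averaging 50 or more normalized counts, PCDH9, the 5 highest members of each cluster over 50, and the 2 highest genes of each list. Listed genes not analysed here were CTNND2, CTNNA3, FAT2, DCHS2, CDHR4, DSG1 to DSG4, DSC1 to DSC3, CYFIP1, TH and MEOX2, and some marker genes are not reported here.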

Additional observations from a re-analysis of the deposited data

How the results depend on the processing

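No member was called under any alternative, and neither was any cluster sum. Genes called in the whole table numbered 33 with DESeq2, against 0 by edgeR (112 at an unadjusted p under 0.05), 55 with GC correction, 60 with GC correction and the replicate block, 15 with counts divided by 4, and between 45 and 90 with a library left out, and the cause was not tested. The replicate block alone gave 37 calls in DESeq2 and 44 in edgeR, and changed no call among the members. Among the fits that kept every library, only edgeR with the block had members that passed 0.05 before adjustment. In that fit these were PCDH17 (unadjusted p = 0.0177) and PCDH9 (unadjusted p = 0.0427), as did 2.57% of the genes tested.

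Of the 22 named members, PCDH17, PCDH7, PCDH9 and PCDHAC2 kept the sign of their Log2FC under every alternative run (with a library left out, -1.89 to -0.456, -0.513 to -0.306, -1.75 to -0.368 and -0.727 to -0.22, in that order), 15 changed it only with a library left out, and 3 changed it otherwise too. The 3 were PCDHGC3 (0.00108 with the replicate block), PCDHGA10 (0.0563 with the replicate block, 0.0498 with the block in edgeR, 0.0141 with GC correction and the block) and PCDH18 (0.0614 with GC correction, 0.0518 with the block added). With each library left out in turn, the Log2FC of the summed gamma cluster ran from -0.507 to 0.499 (highest without control replicate 1), that of the alpha sum from -0.524 to -0.0797 and of the beta sum from -0.121 to -0.0457, and the class medians ran from -0.0595 to 0.0332 for cadherins, -0.533 to 0.0168 for non-clustered and -0.237 to 0.199 for clustered protocadherins. For single genes the ranges were -1.56 to 0.201 for CDH10, -0.219 to 0.0168 for PCDH10, -0.427 to 0.412 for CDH24, -0.188 to 0.0332 for CDH11, -0.177 to 0.0526 for CDH13, -0.533 to 0.196 for PCDH1, -0.0595 to 0.123 for CDH2, -0.682 to 0.656 for PCDH18, -0.237 to 0.122 for PCDHB6, -0.373 to 0.0386 for PCDHB14, -0.0273 to 0.309 for PCDHB2, -0.175 to 0.122 for PCDHB7, -0.244 to 0.0335 for PCDHB8, -0.541 to 0.606 for PCDHGC3, -0.538 to 0.373 for PCDHGB7, -0.431 to 0.299 for PCDHGA7, -0.527 to 0.395 for PCDHGC5 and -0.501 to 0.705 for PCDHGA10. Log2FC near 0 can thus take either sign with 2 libraries a group. Changes of about 1 log2 unit in a gene could have gone undetected. Larger ones could too, since calls rested on p-values adjusted over the table, and more so where the SE was larger. PRRX1, which is not a member, was not called at a Log2FC of -2.02 (SE = 0.61, DESeq2 adjusted p = 0.43).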
